A study of Ovis aries with 15 samples.

Results

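The genes described here control the tone of blood vessels: endothelin 1 and its receptors, the nitric oxide synthases and the adenosine A3 receptor. Members were taken by the gene name in the scanner files, without regard to case, from 11 names: ADORA3, EDN1, EDNRA, EDNRB, NOS1, NOS2, NOS3, ADORA1, ADORA2A, ADORA2B and ADM. The array held 6 probes under 4 of these names (ADORA3, EDNRA, NOS2 and NOS3) and 5 further probes of 3 genes under older names (PPET-1 for EDN1, ETBR for EDNRB and nNOS for NOS1). That gave 11 probes of 7 genes among the 15008 probes on the array. No probe carried the names ADORA1, ADORA2A, ADORA2B or ADM, which were therefore not analysed here.

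The study measured RNA of the kidney cortex of 15 catheterized sheep fetuses on one-colour Agilent arrays, with 1 array for each fetus. Fetuses were at 125 ± 3 d of gestation, and 8 had 30 min of hypoxia, brought about by the air the ewe was given, while 7 had 30 min of normoxia. The groups were hypoxia with ketamine (n = 4), hypoxia with vehicle (n = 4), normoxia with ketamine (n = 4) and normoxia with vehicle (n = 3). Ketamine, a general anaesthetic, was given into a vein of the fetus at 3 mg/kg and 10 min before the exposure, the vehicle was saline, and the cortex was collected 24 h after the start of the exposure. All 4 groups had had surgery and carried catheters, so every value below is one of an operated fetus.

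Endothelin 1 is a peptide from endothelium and tubule cells that contracts vascular smooth muscle through the endothelin A receptor. The endothelin B receptor, on endothelium and tubule, clears the peptide and drives nitric oxide release, and in the kidney it takes part in salt excretion. Nitric oxide, made from arginine by the 3 synthases, relaxes vessels. Adenosine builds up when ATP is broken down in tissue short of oxygen, and its A3 receptor is a Gi-coupled receptor carried in many species by leukocytes and mast cells.

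The sequences read by the probes are given first, since 4 of the 7 genes were measured by a pair of probes that overlap or lie apart. All are 60 bases, written 5′ to 3′ as the files give them. The ADORA3 probe, which passed the threshold with hypoxia, was a single probe spotted 5 times on each array:
ADORA3 A_70_P051241: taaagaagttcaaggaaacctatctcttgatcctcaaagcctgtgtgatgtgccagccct
The EDNRA probes shared no stretch of sequence, and the first, which carried the difference among vehicle fetuses, ends on a stop triplet, shown in capitals:
EDNRA A_70_P012586: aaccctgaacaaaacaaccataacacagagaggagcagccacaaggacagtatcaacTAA
EDNRA A_70_P012587: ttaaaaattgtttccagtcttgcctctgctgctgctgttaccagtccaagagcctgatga
The EDNRB probes shared 20 bases and the NOS2 probes 40 bases, shown in capitals:
EDNRB A_70_P041852: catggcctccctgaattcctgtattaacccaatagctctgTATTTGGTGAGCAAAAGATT
EDNRB A_70_P041851: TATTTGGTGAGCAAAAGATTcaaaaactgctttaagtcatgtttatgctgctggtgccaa
NOS2 A_70_P041327: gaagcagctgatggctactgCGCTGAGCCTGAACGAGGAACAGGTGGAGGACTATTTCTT
NOS2 A_70_P041326: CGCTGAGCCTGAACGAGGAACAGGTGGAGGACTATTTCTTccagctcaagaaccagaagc
The NOS1 probes differ by a shift of 1 base and share 59, again in capitals:
NOS1 A_70_P017117: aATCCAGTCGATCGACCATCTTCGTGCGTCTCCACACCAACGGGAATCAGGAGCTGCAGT
NOS1 A_70_P017116: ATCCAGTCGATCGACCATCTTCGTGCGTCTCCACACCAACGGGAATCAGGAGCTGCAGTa
Over the 15 arrays, levels within a pair correlated at Pearson r = 0.98 for NOS2, 0.95 for EDNRB, 0.38 for EDNRA and -0.002 for NOS1.

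A level below is the log2 of the scanner's processed signal minus the log2 of that array's 75th percentile; a difference of 1 between 2 levels of a probe is a doubling of signal. The 75th percentile lay between 1064 and 1425 units on the 15 arrays. Of the 15008 probes, 12925 were well above background on at least 3 arrays and were tested with limma on all 15 arrays, and 10 of the 11 member probes were among them. The threshold was the unadjusted p of 0.05 that the study states, which is met where the 95% interval of a difference leaves out 0, and the Benjamini-Hochberg adjusted p over the 12925 probes is given beside it. Replicate 4 of hypoxia with vehicle and replicate 2 of hypoxia with ketamine correlated least with the other arrays (median r 0.952 and 0.966, against 0.9685 to 0.985 elsewhere). Replicate 4 of hypoxia with ketamine had the fewest probes well above background, 75.7%, against 81.0 to 85.2% on the other arrays. A probe described as placental lactogen was well above background on 3 arrays (replicate 2 of hypoxia with ketamine and replicates 1 and 2 of normoxia with ketamine), in tissue labelled kidney cortex. The 6 kidney markers on the array (of 16 listed), renin and aquaporin 2 among them, were well above background on all 15 arrays. In RNA of whole cortex, fewer cells of a type and less RNA per cell cannot be told apart.

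ADORA3, the adenosine A3 receptor, was higher after hypoxia in most but not all fetuses. In hypoxia with ketamine its levels were -3.95, -3.22, -4.39 and -4.36 in replicates 1 to 4, and in hypoxia with vehicle they were -5.14, -3.67, -3.03 and -5.07. In normoxia with ketamine the levels were -4.85, -5.09, -5.12 and -4.88, and in normoxia with vehicle -4.79, -4.88 and -4.59. All 4 arrays of hypoxia with ketamine lay above all 7 normoxic arrays, as they did for 1.34% of all probes tested. In hypoxia with vehicle, replicates 2 and 3 lay above every normoxic array, while replicates 1 and 4 lay at the low end of the normoxic range or just under it.

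Among ketamine fetuses, ADORA3 was the 1 member probe of 10 past the threshold, where 8.65% of all probes passed, so the members' share was close to the background. It rose by 1.01 ± 0.41 (log2, SE) with hypoxia, 2.01-fold, with a 95% interval of 0.13 to 1.89 (limma, adjusted p = 0.52). The groups did not overlap, which was so for 2.82% of all probes in this direction, and the exact permutation test, two-sided, gave p = 0.0286, the smallest that 4 arrays against 4 allow. No probe of the 12925 passed at an adjusted p of 0.05 in this comparison, against 1118 at the unadjusted threshold. Within slide 1 the difference was 1.19 and within slide 2 it was 0.83. It was 0.76 without replicate 2 of hypoxia with ketamine, which holds the highest value of its group, and 0.77 without the 3 arrays with placental lactogen. The call was lost in each of these smaller fits, and also without replicate 2 (0.97) or replicate 3 (0.97) of normoxia with ketamine.

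Among vehicle fetuses the ADORA3 difference with hypoxia was 0.53 ± 0.44 (limma, adjusted p = 0.571), with an interval of -0.42 to 1.47 that holds 0 and also the difference seen with ketamine. The difference between both arms, the hypoxia by ketamine interaction, was 0.48 ± 0.60 (adjusted p = 0.989), with an interval of -0.81 to 1.77. Both rest on single arrays of hypoxia with vehicle: the vehicle difference was 0.13 without its replicate 3 and 0.83 without its replicate 1, and the interaction was 0.88 and 0.18 in the same fits, with no call in any. Averaged over both drug arms, ADORA3 rose by 0.77 ± 0.30 (1.70-fold, 95% interval 0.12 to 1.41, adjusted p = 0.178, limma). It was again the 1 member probe of 10 past the threshold, where 20.2% of all probes passed, so the members' share did not exceed the background. A permutation of arrays within each arm gave an exact p of 0.04. In all, 6 of 8 hypoxic arrays lay above all 7 normoxic arrays, as at least that many did for 3.69% of all probes tested. Leaving out 1 array at a time gave a mean over arms of 0.57 to 0.92, past the threshold each time. Within slide 1 it was 0.83, within slide 2 0.67 and without the arrays with placental lactogen 0.65, and none of these 3 fits passed.

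Between ketamine and vehicle no difference in ADORA3 was detectable. In hypoxic fetuses the difference of ketamine from vehicle was 0.25 ± 0.41, with an interval of -0.63 to 1.13 (adjusted p = 0.926, limma). It was 0.65 without replicate 3 of hypoxia with vehicle and -0.05, of the other sign, without replicate 1 of that group, and within slide 1 and slide 2 it was 0.58 and -0.08. In normoxic fetuses it was -0.23 ± 0.44, with an interval of -1.18 to 0.71 (adjusted p = 1, limma). From high to low the group means ran hypoxia with ketamine (-3.98 ± 0.55, SD), hypoxia with vehicle (-4.23 ± 1.05), normoxia with vehicle (-4.75 ± 0.15) and normoxia with ketamine (-4.99 ± 0.14), and no 2 neighbours in that order differed past the threshold.

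**Figure D1:**
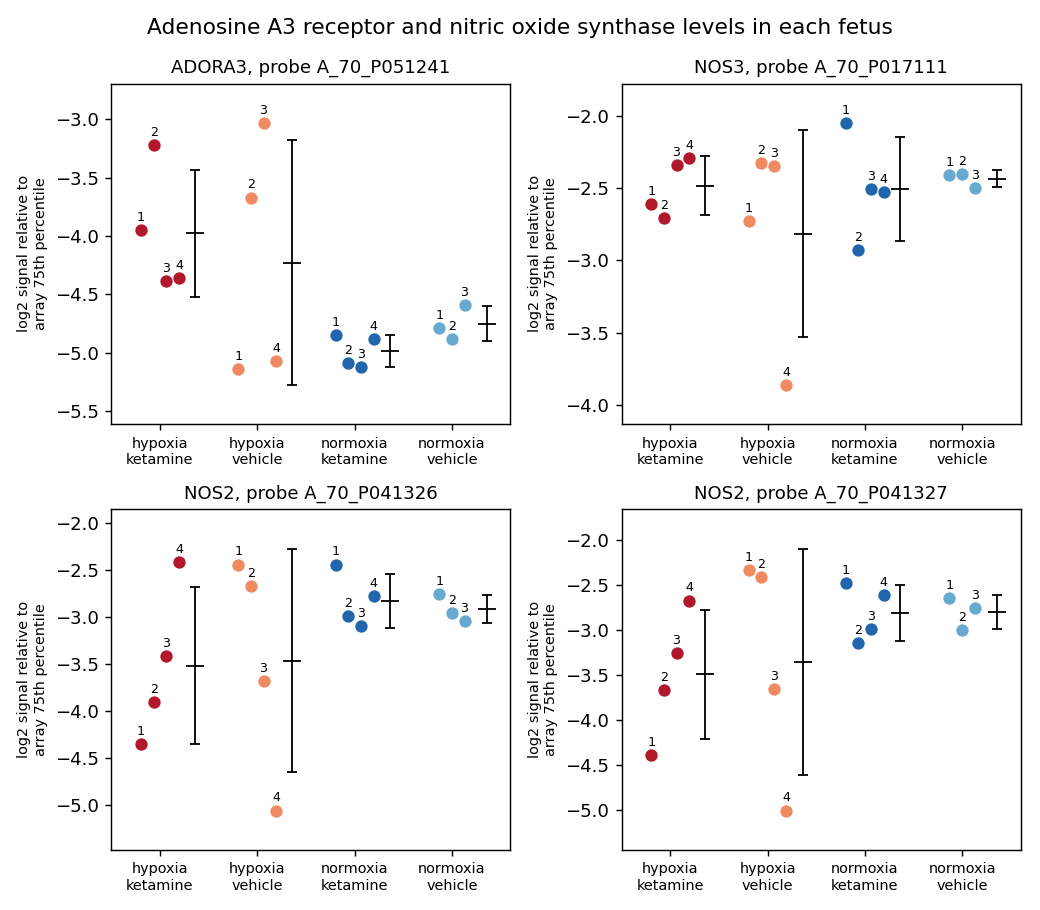
Levels of ADORA3, NOS3 and NOS2 on each array, as log2 signal relative to the array's 75th percentile on the vertical axis, with hypoxia groups left of normoxia groups. Points are fetuses numbered by replicate, and the black mark and bar are the group mean and SD; ADORA3 in hypoxia with ketamine, -4.39 to -3.22, lies above all normoxic arrays, and both NOS2 probes spread widely in the 2 hypoxic groups.

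The spread of ADORA3 among fetuses was also much larger after hypoxia. Its SD about the group means was 0.836 over the 8 hypoxic arrays and 0.143 over the 7 normoxic arrays, a ratio of 5.86, where the same SDs had a median of 0.285 and 0.21 over all probes tested and the ratio a median of 1.33. The 5 spots of the probe on an array had an SD of 0.07 to 0.229, which measures noise between spots of 1 array only and leaves out labelling and hybridization. The limma model assumes 1 variance for all 4 groups, while those of ADORA3 differed this much.

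Several monocyte and macrophage markers were also higher after hypoxia, including on arrays where ADORA3 was not raised. Of 14 monocyte and macrophage markers, 7 were on the array and 6 were tested. With hypoxia, 4 of the 6 rose past the unadjusted threshold among ketamine fetuses, where 8.65% of all probes passed in either direction. Among vehicle fetuses 5 of the 6 did, where 16.1% of all probes passed. The lowest adjusted p of the 6 was 0.334 among ketamine fetuses and 0.13 among vehicle fetuses (limma). The summed signal of the 6 markers, as a percent of the array's 75th percentile, was 119 to 374 in hypoxia with ketamine and 133 to 393 in hypoxia with vehicle, against 84.5 to 101 in normoxia with ketamine and 87.3 to 94.5 in normoxia with vehicle. FCER1G weighs most in this sum, with the highest mean level of the 6 in each group. In hypoxia with ketamine its mean level was 0.03, against -1.47 for CD14, the next highest. The sums were highest in replicate 2 of hypoxia with ketamine and replicate 3 of hypoxia with vehicle, the same 2 arrays on which ADORA3 was highest. Replicates 1 and 4 of hypoxia with vehicle, with ADORA3 at the normoxic level, had sums of 133 and 205, above the normoxic range. CD4 was well above background on 0 arrays and ITGAM on 3. The 1 neutrophil marker on the array (of 10 listed), the cathelicidin CATHL3, had 91.2 to 2138 in hypoxia with ketamine and 48.4 to 2900 in hypoxia with vehicle, against 17.4 to 66.3 in normoxia with ketamine and 51.4 to 209 in normoxia with vehicle, in the same unit. It rose with hypoxia among ketamine fetuses past the unadjusted threshold (limma, adjusted p = 0.517). Mast cell markers did not move together: of 4 tested, KIT fell in hypoxia with ketamine against normoxia with ketamine (-0.66 ± 0.26, adjusted p = 0.504, limma), and the others did not pass. The part of these cells in the ADORA3 result was not tested.

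Other named genes followed ADORA3 closely from array to array. Among the gene-named probes well above background on all 15 arrays, which cover 567 genes, the 3 genes with the highest Pearson r to ADORA3 were ITGB2, the common chain of leukocyte integrins (r = 0.95), SLC11A1, a metal transporter of phagosomes (r = 0.93), and LYZ, lysozyme (r = 0.89). Taken as deviations from the group means the values were 0.94, 0.92 and 0.90. Without the 2 arrays farthest from the ADORA3 median (replicate 2 of hypoxia with ketamine and replicate 3 of hypoxia with vehicle) they were 0.85, 0.83 and 0.87. The points share the array and its scaling, and they were chosen for being high.

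**Figure D2:**
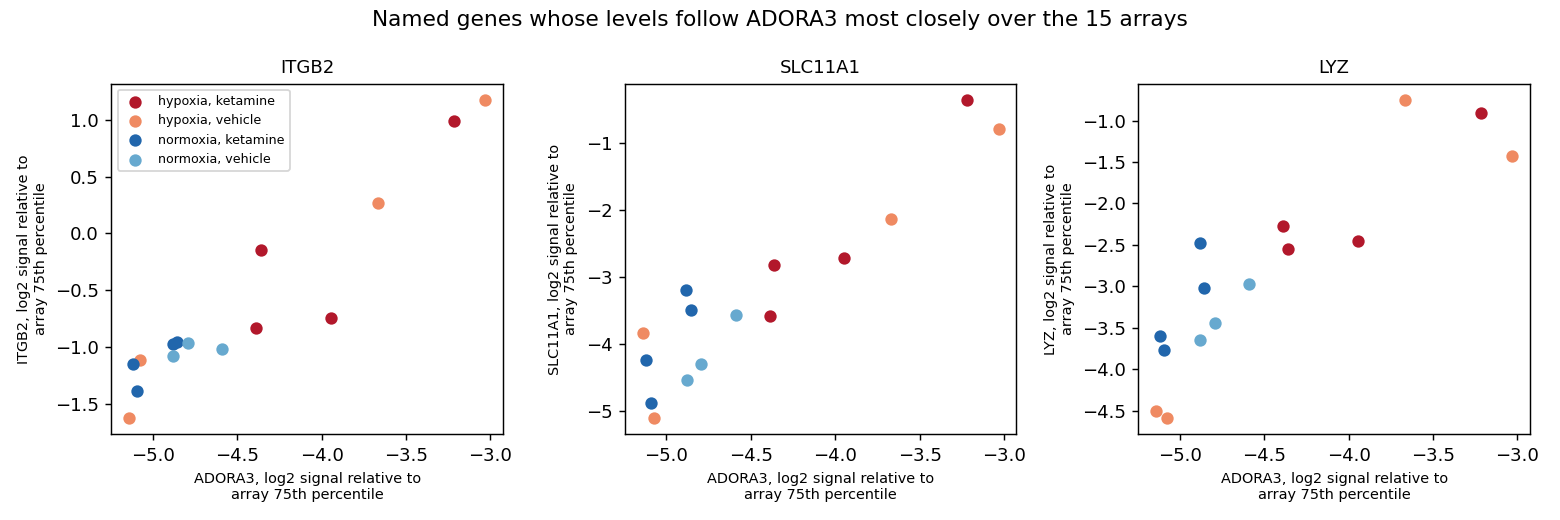
Level of ITGB2, SLC11A1 and LYZ (vertical axes) against the level of ADORA3 (horizontal axes), each as log2 signal relative to the array's 75th percentile, with 1 point for each of the 15 fetuses coloured by group. The 2 arrays at the upper right are replicate 2 of hypoxia with ketamine and replicate 3 of hypoxia with vehicle, and Pearson r is 0.95, 0.93 and 0.89.

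EDN1, the gene of the endothelin 1 precursor, did not pass the threshold in any comparison and was widest in hypoxia with vehicle. Its levels were -1.87, -2.71, -1.97 and -2.61 in hypoxia with ketamine, and -1.0, -2.16, -2.38 and -0.23 in hypoxia with vehicle. They were -1.67, -2.41, -2.50 and -2.08 in normoxia with ketamine, and -1.76, -2.07 and -1.71 in normoxia with vehicle. Replicates 1 and 4 of hypoxia with vehicle were the highest of the 15, and these are the arrays on which ADORA3 had stayed low. The other 2 arrays of that group lay among the ketamine arrays, so the groups overlapped.

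The difference of ketamine from vehicle for EDN1 in hypoxic fetuses was -0.85 ± 0.40 (0.555-fold, adjusted p = 0.805, limma), with an interval of -1.71 to 0.01. No member probe passed in this comparison, where 6.05% of all probes did. Without replicate 4 of hypoxia with vehicle, which also correlated least with the other arrays, it was -0.44. Within slide 1 it was -1.47, past the threshold, and within slide 2 it was -0.23. It passed the threshold without replicate 2 (-1.09) or replicate 3 (-1.16) of the same group, or without replicate 1 of hypoxia with ketamine (-0.99). With hypoxia, EDN1 differed by -0.13 ± 0.40 among ketamine fetuses (adjusted p = 0.971) and by 0.41 ± 0.43 among vehicle fetuses (adjusted p = 0.665, limma), and the second was 0.001 without replicate 4 of hypoxia with vehicle. The genes most like EDN1 over the 15 arrays were JUND, a subunit of the AP-1 transcription factor (r = 0.85), PTGS2, the inducible cyclooxygenase (r = 0.84), and TRAF3, a signalling adaptor (r = 0.78). Without replicates 1 and 4 of hypoxia with vehicle they were 0.37, 0.28 and 0.37, so the likeness rests on those 2 arrays.

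EDNRA, the endothelin A receptor that contracts smooth muscle, was highest in normoxia with vehicle on both probes. On probe A_70_P012586 the levels were -3.89, -3.93, -3.51 and -4.20 in hypoxia with ketamine, -4.03, -4.07, -3.81 and -3.94 in hypoxia with vehicle, -3.84, -3.84, -3.71 and -4.35 in normoxia with ketamine, and -3.18, -3.56 and -3.60 in normoxia with vehicle. The 3 arrays of normoxia with vehicle lay above those of both hypoxia with vehicle and normoxia with ketamine, while the other 3 groups overlapped one another. The spots of this probe on an array had a median SD of 0.096. Of 5 smooth muscle markers 1 was on the array, CNN1, at 71.0 to 109% of the 75th percentile in hypoxia with ketamine, 65.1 to 303% in hypoxia with vehicle, 46.8 to 422% in normoxia with ketamine and 65.3 to 80.6% in normoxia with vehicle, and its part in the EDNRA values was not tested.

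Among vehicle fetuses, EDNRA on this probe fell with hypoxia by 0.51 ± 0.18 (log2, SE; 95% interval -0.91 to -0.12, adjusted p = 0.222, limma). It was the 1 member probe of 10 past the threshold, where 16.1% of all probes passed, so the members' share did not exceed the background. The groups did not overlap, as for 9.57% of all probes in this direction, and the exact permutation p was 0.0286, the smallest that 4 arrays against 3 allow. Within slide 2 the difference was -0.31, and without replicate 1 of normoxia with vehicle it was -0.38, neither past the threshold.

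In normoxic fetuses the same probe was lower with ketamine. EDNRA on probe A_70_P012586 fell with ketamine against vehicle by 0.49 ± 0.18 (95% interval -0.88 to -0.09, adjusted p = 1, limma), the 1 member probe of 10 past the threshold where 2.7% of all probes passed. The groups did not overlap, as for 4.59% of all probes in this direction, and the exact permutation p was 0.0571. This comparison and the one above share the 3 arrays of normoxia with vehicle. Within slide 1 it was -0.47 and within slide 2 -0.43. It was -0.35 without replicate 1 of normoxia with vehicle and -0.35 without replicate 4 of normoxia with ketamine, and none of these 4 fits passed.

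Among ketamine fetuses no difference with hypoxia was detectable for EDNRA on this probe (0.05 ± 0.17, interval -0.32 to 0.42, adjusted p = 0.974, limma, in hypoxia with ketamine against normoxia with ketamine). The interaction was 0.56 ± 0.25 (95% interval 0.02 to 1.1, adjusted p = 0.989, limma), again the 1 member probe past the threshold, where 3.13% of all probes passed. It uses the same 3 arrays of normoxia with vehicle, and the call was lost on leaving out any 1 of 8 of the 15 arrays, with values of 0.42 to 0.67 over all 15 such fits.

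The other EDNRA probe, A_70_P012587, did not pass in any comparison. Its levels were -1.96, -1.60, -1.57 and -1.60 in hypoxia with ketamine, -1.86, -1.57, -1.61 and -1.75 in hypoxia with vehicle, -1.59, -1.26, -1.83 and -1.74 in normoxia with ketamine, and -1.49, -1.46 and -1.44 in normoxia with vehicle. The 4 arrays of hypoxia with vehicle lay below the 3 of normoxia with vehicle here too, by -0.23 ± 0.14 (interval -0.54 to 0.08, adjusted p = 0.437, limma). Against normoxia with vehicle, normoxia with ketamine differed by -0.14 (interval -0.45 to 0.17), and here 1 ketamine array, replicate 2, lay above all 3 vehicle arrays. Both probes read the same gene at places that share no bases, and they correlated at r = 0.38.

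**Figure D3:**
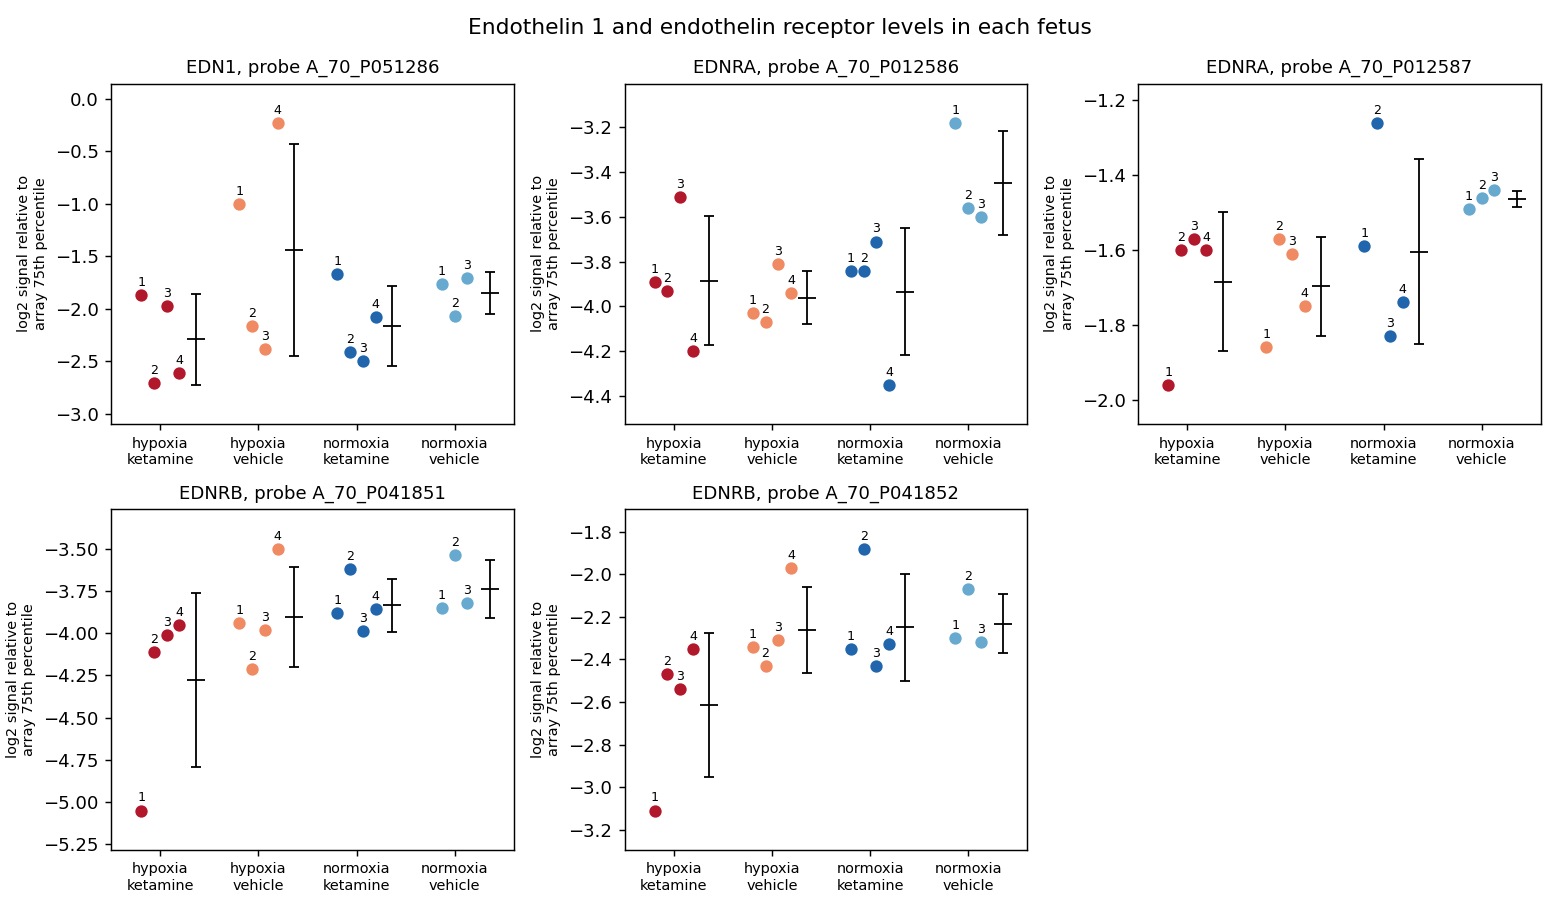
Levels of EDN1, EDNRA and EDNRB on each array, as log2 signal relative to the array's 75th percentile on the vertical axis, with hypoxia groups left of normoxia groups. Points are fetuses numbered by replicate and the black mark and bar are the group mean and SD; on EDNRA probe A_70_P012586 the normoxia with vehicle arrays, -3.60 to -3.18, lie above those of hypoxia with vehicle and normoxia with ketamine.

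EDNRB, the endothelin B receptor, was lowest in hypoxia with ketamine on both probes without passing the threshold. On probe A_70_P041852 the levels were -3.11, -2.47, -2.54 and -2.35 in hypoxia with ketamine, -2.34, -2.43, -2.31 and -1.97 in hypoxia with vehicle, -2.35, -1.88, -2.43 and -2.33 in normoxia with ketamine, and -2.30, -2.07 and -2.32 in normoxia with vehicle. Replicate 1 of hypoxia with ketamine was the lowest of the 15, and it was the lowest on the overlapping probe as well, at -5.05 against -4.21 to -3.50 on the other 14 arrays. Hypoxia with ketamine overlapped hypoxia with vehicle and normoxia with ketamine on both probes.

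For hypoxia with ketamine against normoxia with ketamine the EDNRB differences were -0.37 ± 0.18 (adjusted p = 0.598) on probe A_70_P041852 and -0.45 ± 0.22 (adjusted p = 0.623, limma) on probe A_70_P041851. Both intervals reach just past 0, at 0.01 and 0.04. Both rest in large part on replicate 1 of hypoxia with ketamine, without which they were -0.20 and -0.19 and did not pass. The first passed the threshold with the slide (-0.37) or the replicate number (-0.37) as a block, and in the authors' deposited values (-0.33). It also passed without the 2 least correlated arrays (-0.41). So it did without replicate 4 of hypoxia with ketamine, replicate 4 of hypoxia with vehicle or replicate 3 of normoxia with ketamine. The second passed without replicate 3 or replicate 4 (-0.55) of hypoxia with ketamine. Against hypoxia with vehicle, hypoxia with ketamine was lower in mean on both probes, with differences of -0.35 ± 0.18 (adjusted p = 0.805) and -0.37 ± 0.22 (adjusted p = 0.809, limma). Leaving out 1 array gave -0.44 to -0.19 and -0.48 to -0.12, and the first passed in 2 of these 15 fits. The first also passed with the slide (-0.35) or the replicate number (-0.35) as a block, and in the authors' deposited values (-0.34). Among vehicle fetuses hypoxia made a difference of -0.03 ± 0.19 and -0.17 ± 0.24, both with intervals holding 0. The gene with the highest r to EDNRB on both probes was NR3C1, the glucocorticoid receptor (r = 0.70 and 0.78), with CLCN2, a chloride channel, at 0.70 as well on probe A_70_P041852. Without the 2 arrays farthest from each probe's median the NR3C1 values were 0.36 and 0.78, so on probe A_70_P041852 the likeness rests on those 2 arrays.

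Of the nitric oxide synthases, NOS2, the inducible form made by activated immune cells and some tubule cells, varied most from fetus to fetus after hypoxia. On probe A_70_P041326 the levels were -4.35, -3.90, -3.41 and -2.41 in hypoxia with ketamine, and -2.44, -2.67, -3.68 and -5.06 in hypoxia with vehicle. They were -2.44, -2.99, -3.09 and -2.78 in normoxia with ketamine, and -2.75, -2.96 and -3.04 in normoxia with vehicle. Of the 8 hypoxic arrays, 5 lay below all 7 normoxic arrays and 2 above them, 1 of these by less than 0.01. The overlapping probe gave the same counts, but not the same 2 arrays above. Replicate 4 of hypoxia with ketamine lay above on the first probe and within the normoxic range on the second (-2.67). The reverse held for replicate 2 of hypoxia with vehicle (-2.41 on the second). At least 5 of 8 hypoxic arrays below all normoxic arrays was seen for 10.3% of all probes tested, and at least 7 of 8 outside the normoxic range for 5.72%.

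The NOS2 difference with hypoxia was -0.69 ± 0.50 among ketamine fetuses (adjusted p = 0.783), -0.55 ± 0.54 among vehicle fetuses (adjusted p = 0.639) and -0.62 ± 0.37 averaged over both arms (interval -1.42 to 0.18, adjusted p = 0.367, limma). Over both arms it passed the threshold without replicate 1 of hypoxia with vehicle (-0.79) or replicate 4 of hypoxia with ketamine (-0.81), and it was -0.35 without replicate 4 of hypoxia with vehicle. Without that array the difference among vehicle fetuses was -0.02, and -0.003 on the other probe. Its SD about the group means was 1.03 over hypoxic and 0.242 over normoxic arrays, a ratio of 4.25, and 3.85 on the other probe. The genes most like NOS2 on this probe were IGFBP5, an insulin-like growth factor binding protein (r = 0.81), PECAM1, an adhesion molecule of endothelium (r = 0.81), and HSD11B2, the enzyme that inactivates cortisol in the distal nephron (r = 0.80). Without replicate 1 of hypoxia with ketamine and replicate 4 of hypoxia with vehicle these were 0.65, 0.64 and 0.60.

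NOS3, the synthase of endothelium, did not pass the threshold in any comparison, and 1 fetus lay well below the rest. Its levels were -2.61, -2.71, -2.34 and -2.29 in hypoxia with ketamine, and -2.73, -2.33, -2.35 and -3.86 in hypoxia with vehicle. They were -2.05, -2.93, -2.51 and -2.53 in normoxia with ketamine, and -2.41, -2.40 and -2.50 in normoxia with vehicle. All groups overlapped, and the lowest array was replicate 4 of hypoxia with vehicle, on which NOS2 was lowest and EDN1 highest. NOS3 differed with hypoxia by 0.02 ± 0.29 among ketamine fetuses (adjusted p = 0.995) and by -0.38 ± 0.31 among vehicle fetuses (adjusted p = 0.561, limma), and the second was -0.03 without that array. The summed signal of the 3 endothelial markers tested (of 13 listed) was 418 to 582% of the 75th percentile in hypoxia with ketamine, 499 to 651% in hypoxia with vehicle, 481 to 582% in normoxia with ketamine and 508 to 564% in normoxia with vehicle. Most of that sum is PECAM1, with a mean level of 2.14 in hypoxia with vehicle and 2.43 in normoxia with vehicle. The sum also takes in SELP, P-selectin, an adhesion molecule of activated endothelium and platelets, and does not show these genes apart. SELP had mean levels of -3.19 in hypoxia with ketamine, -0.65 in hypoxia with vehicle, -5.32 in normoxia with ketamine and -5.50 in normoxia with vehicle. SELP rose with hypoxia by 4.85 ± 1.15 among vehicle fetuses (adjusted p = 0.132) and by 3.49 ± 0.78 averaged over both arms (adjusted p = 0.0436, limma). Among ketamine fetuses the difference was 2.13 ± 1.06 (adjusted p = 0.619, limma), not past the threshold. With ketamine in hypoxic fetuses SELP fell by 2.54 ± 1.06 (adjusted p = 0.805, limma). The interaction was -2.72 ± 1.56 (adjusted p = 0.989, limma) and did not pass. PECAM1 and FLT1 passed in no comparison, and the part of endothelial cells in the NOS3 values was not tested. NOS2 and NOS3 correlated at r = 0.70 (Spearman rho 0.48), and NOS3 and EDN1 at r = -0.61 (rho -0.14), over 15 arrays that share this outlying one.

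NOS1, the neuronal synthase, which the macula densa of the kidney also makes, was at background. Probe A_70_P017116 was well above background on 3 of 15 arrays (replicate 1 of hypoxia with ketamine, replicate 4 of hypoxia with vehicle and replicate 1 of normoxia with ketamine) and probe A_70_P017117 on 1 (replicate 2 of hypoxia with ketamine), which kept the second out of the tests. The highest level on the first was -6.03, a signal of 1.54% of the array's 75th percentile. Nearly identical probes did not follow each other (r = -0.002), and no fold is given.

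**Figure D4:**
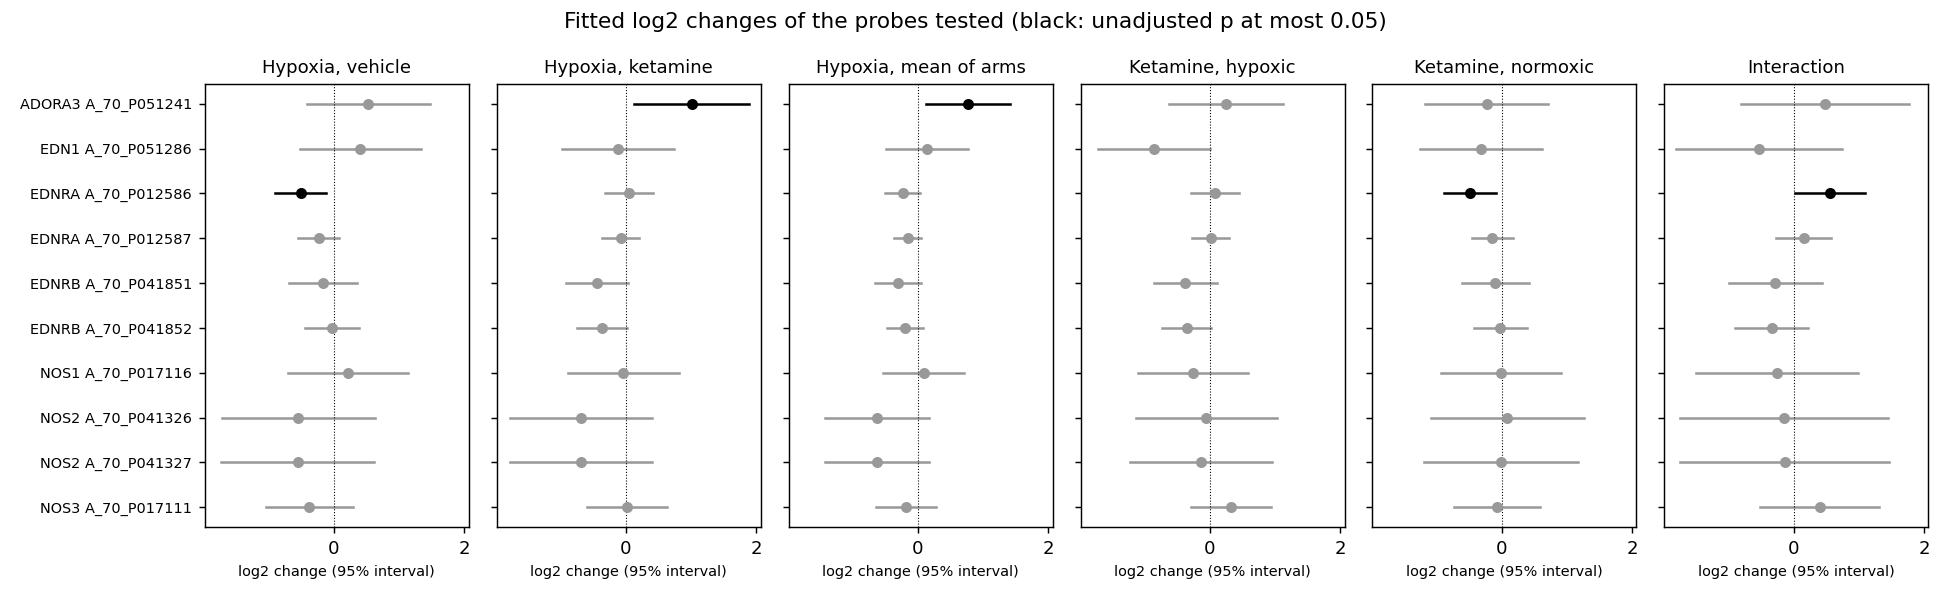
Fitted log2 change (points) and 95% interval (lines) of each of the 10 member probes tested, on the horizontal axes, in 6 comparisons: hypoxia against normoxia among vehicle fetuses, among ketamine fetuses and averaged over both, ketamine against vehicle among hypoxic and among normoxic fetuses, and the interaction. Black marks the probes at an unadjusted p of at most 0.05, which are ADORA3 in 2 panels and EDNRA probe A_70_P012586 in 3.

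**Figure D5:**
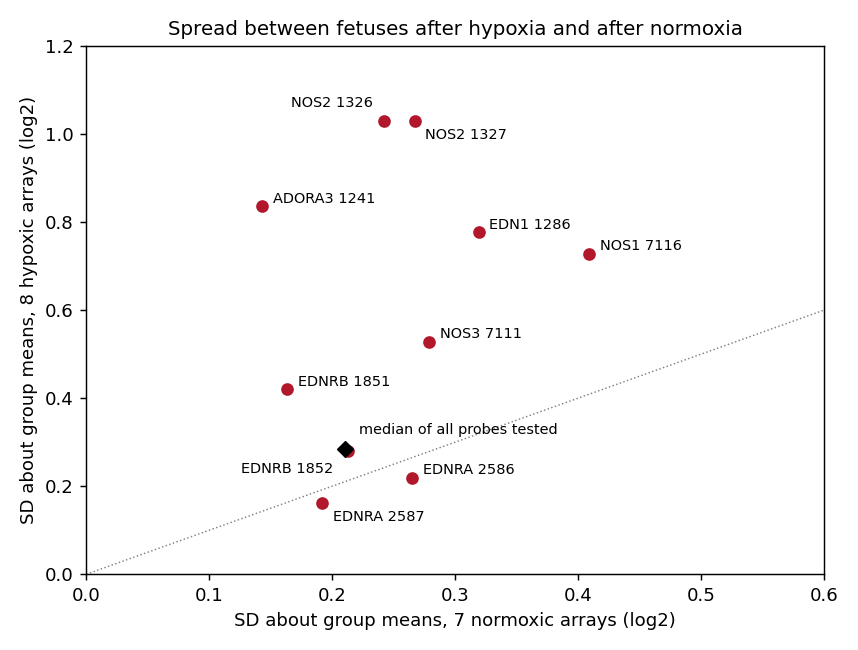
SD of each member probe about its group means over the 8 hypoxic arrays (vertical axis) against the 7 normoxic arrays (horizontal axis), both in log2 units, with the last 4 digits of the probe name and a dotted line of equal spread. ADORA3 (0.836 against 0.143) and NOS2 (1.03 against 0.242) lie far above the line, the EDNRA probes just below it, and the black diamond is the median of all probes tested.

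The members differed in spread as well as in level. The ratio of the hypoxic to the normoxic SD was 2.43 for EDN1, 1.89 for NOS3, and 2.58 and 1.31 for the EDNRB probes. It was 0.83 and 0.84 for the EDNRA probes.

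Few other genes of these pathways were on the array. Of 5 listed endothelin genes 1 was present, of 14 adenosine genes 1 and of 6 adrenomedullin genes 0. Of 23 names listed under nitric oxide, with older symbols and natriuretic peptide genes among them, 3 were present. ARG2, the mitochondrial arginase that uses the same arginine as the nitric oxide synthases, rose with hypoxia by 0.53 ± 0.23 among ketamine fetuses (adjusted p = 0.547) and by 0.61 ± 0.25 among vehicle fetuses (adjusted p = 0.264, limma). Averaged over both arms it rose by 0.57 ± 0.17 (1.48-fold, adjusted p = 0.0932, limma), and its second probe by 0.61 ± 0.20 (adjusted p = 0.113). Its levels were -0.44, -0.94, -1.31 and -1.11 in hypoxia with ketamine and -0.24, -1.32, -0.81 and -1.25 in hypoxia with vehicle, against -1.43, -1.27, -1.44 and -1.79 in normoxia with ketamine and -1.53, -1.44 and -1.57 in normoxia with vehicle. Replicate 1 was the highest of each hypoxic group. Within slide 1 the mean over arms was 0.26 and did not pass, and leaving out 1 array at a time gave 0.46 to 0.64, past the threshold each time. Of the 15 fits that each left out 1 array of the 15, the call was lost in 4 for hypoxia among vehicle fetuses. Among ketamine fetuses it was lost in 5 of the 15.

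The remaining pathway genes gave no call on the probe used for each. ECE1, the enzyme that cuts endothelin 1 from its precursor, differed over both arms by 0.14 ± 0.13, and CAV1, caveolin 1, which binds and restrains NOS3, by -0.32 ± 0.20 (adjusted p = 0.404, limma). NPPC, the C-type natriuretic peptide, differed in hypoxia with vehicle from normoxia with vehicle by 1.0 ± 0.50 on the probe used (interval -0.08 to 2.07, adjusted p = 0.337, limma). Its other probe rose by 1.43 ± 0.66 (interval 0.003 to 2.85, adjusted p = 0.31), just past the threshold. XDH, xanthine dehydrogenase, was not tested.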

How the data were processed

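Each file is the scanner output of 1 array, written by Agilent Feature Extraction 10.1.1.1 per the file headers, with intensity values (processed signal, already background-subtracted by the scanner software) and flags deposited for each of 15744 spots. The authors' deposited value table holds log2 values of 11705 probes, normalized by them in a way not given in the sources used here, and served as an alternative. Of its 15 columns, 3 matched the scanner values of their own array best and all 15 matched an array of their own group best, so which array of a group a column holds is in doubt and its counts are read by group only. Spots of a probe were averaged after outlier spots were dropped, divided by the array's 75th percentile and taken to log2. Probes well above background on at least 3 of 15 arrays (12925 of 15008) were fitted with limma 3.58.1 in R 4.3.3 (lmFit, eBayes, 1 mean per group, 11 residual and 2.38 prior degrees of freedom), and p-values were adjusted over all of them by Benjamini-Hochberg. The script was tested on simulated data. The submitters' processing notes name limma. Gene names came from the array's own names, from accessions matched to RefSeq (ARS-UI_Ramb_v3.0, names only) or, for 5 probes, from older names, and 1207 probes were named. For list genes with several probes, the probe with the highest mean level was used.

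The members and lists were chosen with earlier results of these data known. Named genes were every member, pathway and marker genes on the array, and genes from among the 3 most correlated with a member. Not all of these correlated genes are given, and those of EDNRA and NOS3 are left out. The number of arrays limits the precision. Each sample is a separate fetus per the labels. Slides (2) were tested as a block and one at a time. For samples sharing a replicate number, deviations from the group means correlated at r -0.291 to 0.370 (21 pairs, median 0.036, 3 over 0.1). Pairs of unlike number were not compared, so these values cannot decide whether the numbers pair the fetuses. No pairing was used in the main setting. No column was left unmapped.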

Additional observations from a re-analysis of the deposited data

Results flagged for a closer look

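Of 33 groups of 4 arrays checked for a single array far from the rest, 2 were flagged, and chance flags about 1 group in 20. Both flagged values came from replicate 1 of hypoxia with ketamine: EDNRA probe A_70_P012587 at -1.96 on the log2 scale relative to the array's 75th percentile, against -1.60 to -1.57 on the other 3 arrays of the group, and EDNRB probe A_70_P041851 at -5.05, against -4.11 to -3.95.

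On EDNRA probe A_70_P012586 the hypoxia by ketamine interaction passed the unadjusted threshold, at 0.561 on the log2 scale (95% interval 0.02 to 1.1, adjusted p = 0.989, limma). In this comparison 3.13% of all probes passed. The call was lost on leaving out any 1 of 8 of the 15 arrays, and in 7 of 11 other settings. The second EDNRA probe gave an interaction of 0.15 (interval -0.27 to 0.58, limma).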

How the results depend on the processing

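Of 10 member probes, the main setting called 1 in every comparison but ketamine against vehicle in hypoxic fetuses, where it called 0. Among vehicle fetuses the count for hypoxia was 0 with normexp background correction and within slide 2. Among ketamine fetuses it was 2 with the slide as a block, the replicate block or the deposited value table, and 0 within slide 1 and without the 3 arrays with placental lactogen. For ketamine in hypoxic fetuses it was 1 with probes well above background on all arrays, with the slide as a block, within slide 1 and in the deposited table, and 2 with the replicate block. For ketamine in normoxic fetuses it was 0 with normexp and within slide 1. The interaction was called on 0 probes with normexp, within either slide, with the replicate block, in the deposited table, without the arrays with placental lactogen and without the 2 least correlated arrays. The mean over arms gave 2 with the replicate block, 0 without the placental lactogen arrays and 2 without the 2 least correlated arrays. An equal count can hide another probe. Within slide 2 the 1 call was NOS1, near background, in place of ADORA3 (hypoxia in ketamine fetuses and the mean over arms) or EDNRA (ketamine in normoxic fetuses). Within slide 1 the mean over arms called EDNRA (-0.43) in place of ADORA3, and without the 2 least correlated arrays hypoxia in ketamine fetuses called EDNRB (-0.41) in place of ADORA3 (0.76). The setting without the 2 least correlated arrays and the exact permutation test were chosen after seeing the data. Leaving out 1 array gave 0 to 1 member for hypoxia in vehicle fetuses, both ketamine comparisons and the interaction, 0 to 3 for hypoxia in ketamine fetuses and 1 to 3 for the mean over arms. The replicate block is no pairing by design, and the data did not decide whether the numbers pair the fetuses.

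Over all probes, normexp gave 1255 calls for hypoxia in vehicle fetuses (main 2083), 400 for ketamine in hypoxic fetuses (782), 116 in normoxic fetuses (349), 198 for the interaction (405) and 1682 for the mean over arms (2617). Within slide 1 the counts were 1196, 604 (main 1118, ketamine fetuses), 276, 226 for the interaction and 1579 for the mean over arms, and within slide 2 665 in vehicle fetuses and 1085 for the mean over arms. Fits on the compared groups alone gave 430 and 671 for ketamine in hypoxic and in normoxic fetuses. Without the placental lactogen arrays the counts were 1454 for ketamine in hypoxic fetuses, 711 for the interaction and 1739 for the mean over arms, and without the 2 least correlated arrays 1244, 555 for ketamine in normoxic fetuses and 941 for the interaction. Leaving out 1 array gave 1306 to 2453 for hypoxia in vehicle fetuses, 833 to 1338 in ketamine fetuses, 482 to 1598 for ketamine in hypoxic fetuses, 220 to 543 in normoxic fetuses, 235 to 984 for the interaction and 2096 to 2906 for the mean over arms. The cause was not tested, except that fits on fewer arrays have fewer degrees of freedom by construction.

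ADORA3 was higher with hypoxia under every setting tried in ketamine fetuses (0.60 to 1.19 with all arrays or a named set, 0.76 to 1.15 with one array left out) and over both arms (0.43 to 0.83). The fitted value of NOS1 probe A_70_P017116 for hypoxia in ketamine fetuses turned sign within slide 2 (0.54, against -0.04 in the main setting), and since the probe was not well above background on 12 of 15 arrays, it is not read as a difference. The files limit what can be said of levels near background and of genes with 1 probe.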
